A study of Homo sapiens with 179 samples.

Results

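Aminoacyl-tRNA synthetases, the enzymes that join each amino acid to its transfer RNA, were examined in the established human embryonic stem cell line H1. Members were taken by symbol: 1 letter followed by ARS, with or without a closing 2, plus EPRS, FARSA and FARSB. This gave 37 of the 19084 genes in the deposited tables, 20 without the closing 2, called cytosolic here, and 17 with it, called mitochondrial. All 37 passed the filter on low counts in each comparison, and all were matched to RefSeq, which now adds a 1 to many of the cytosolic symbols (AARS is AARS1).

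All libraries were made from total RNA of H1 cells kept in E8, a defined medium, on Matrigel, with no other treatment named. Libraries from the Illumina TruSeq kit were labelled H1p16 (n = 3) and H1p43 (n = 3), with 12 samples per lane. LM-Seq, a low-cost protocol that captures mRNA on oligo-dT beads and primes with random hexamers, gave Lane1 (n = 95), Lane2 (n = 48), Lane3 (n = 24) and Lane4 (n = 6), where n is also the number of samples sharing the lane. The labels do not explain p16 and p43, nor how the 5-digit library numbers of the lanes differ. Nor do they say whether replicates were separate cultures. The p-values thus cover the scatter of these libraries alone, which may be technical.

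Each synthetase recognises 1 amino acid and its transfer RNAs, and the charged transfer RNA is the substrate of the ribosome. Cytosol and mitochondria mostly use enzymes of different nuclear genes. GARS and KARS serve both compartments from 1 gene each, and EPRS carries the glutamyl and the prolyl enzyme in 1 chain. In the cytosol 8 members sit in the multisynthetase complex, held together by the scaffold proteins AIMP1, AIMP2 and EEF1E1. ATF4, the transcription factor of the amino acid response, is known to activate many cytosolic synthetase genes, and 12 members were listed here as its known targets.

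ATF4 binds a short element in gene promoters, so the promoters were read for the motif TGATGNAAN on both strands, as the only motif searched. RefSeq promoters of GRCh38.p14, from 250 bases before to 50 after each start, were in the table for 30 members, and not, among others, for DARS, LARS, VARS, YARS, AARS2 and VARS2. The motif was found in 7 of 10 known ATF4 targets, 0 of 6 other cytosolic members and 1 of 14 mitochondrial members. Over all promoters it occurred in 3.61% (1268 of 35116), and over genes in 4.45% (1215 of 27305). A match is a description of letters and not a measured binding site. The 8 matches are shown as windows of 29 bases on the strand of the gene, with the motif or its reverse complement in capitals.
AARS (chr16:70289676-70289704, minus strand): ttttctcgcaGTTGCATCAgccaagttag
CARS (chr11:3057408-3057436, minus strand): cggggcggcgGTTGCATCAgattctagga
GARS (chr7:30594834-30594862, plus strand): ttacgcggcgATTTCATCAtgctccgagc
IARS (chr9:92293693-92293721, minus strand): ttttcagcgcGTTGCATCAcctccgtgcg
MARS (chr12:57488053-57488081, plus strand): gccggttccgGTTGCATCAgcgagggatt
NARS (chr18:57621804-57621832, minus strand): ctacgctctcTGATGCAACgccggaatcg
TARS (chr5:33440956-33440984, plus strand): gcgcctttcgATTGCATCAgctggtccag
YARS2 (chr12:32756076-32756104, minus strand): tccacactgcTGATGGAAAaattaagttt
In CARS and MARS the first capital lay 3 and 5 bases before the annotated start, so the match ran across it, and in AARS and YARS2 it lay 188 and 197 bases before it.

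HARS and HARS2, the cytosolic and mitochondrial histidyl enzymes, start back to back on chromosome 5. The 84 bases between their annotated starts (chr5:140691371-140691454, GRCh38.p14, plus strand), which both genes share as upstream sequence, are shown because the pair is compared below; no part is marked.
HARS and HARS2: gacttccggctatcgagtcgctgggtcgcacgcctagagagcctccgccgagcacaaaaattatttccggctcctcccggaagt

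Expected counts, the reads RSEM assigns to genes, summed to between 23680503 and 35852646 per TruSeq library. The sums were 1040671 to 1539277 per library of Lane1, 2005736 to 2739084 of Lane2, 4028607 to 4918577 of Lane3 and 15780078 to 16583048 of Lane4. All 7 listed markers of pluripotent cells averaged at least 1 TPM in each group, and they summed to 7536 to 7773 TPM in H1p16 and 6444 to 6473 TPM in H1p43. The markers on that list did not differ alike. DNMT3B, a DNA methyltransferase, showed the largest drop, averaging 1460 TPM in H1p16 and 773 TPM in H1p43. POU5F1 averaged 3191 TPM in H1p16 and 3070 TPM in H1p43. TDGF1 alone on the list averaged higher in H1p43 (956.7 TPM) than in H1p16 (914.4 TPM). Neuroectoderm and endoderm markers summed to at most 2.58 TPM in any library, and mesoderm markers to at most 12.6 TPM. In the stroma list DCN and LUM, its defining proteoglycans, were listed at 0, but COL1A1, COL1A2, PDGFRB and THY1 were not. That list summed to 559 to 594 TPM in H1p16, 489 to 503 TPM in H1p43 and 332 to 454 TPM in LM-Seq. THY1 was the largest part of it, averaging 495 TPM in H1p16, 387 in H1p43 and 252 in Lane4. COL1A1 averaged 44.9, 45.7 and 79.5 TPM in the same groups, COL1A2 29.3, 50.7 and 62.99, and PDGFRB 6.67, 12.5 and 3.94. COL3A1 averaged at most 0.19 TPM in any group. The part of these marker differences in the results was not tested. In bulk RNA, fewer cells of a type and less RNA per cell cannot be told apart.

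Cytosolic synthetases were abundant and mitochondrial ones several times lower, in TPM, which is scaled to transcript length. All 20 cytosolic members lay above the median of the genes averaging 1 TPM or more in all 6 groups. Of the 17 mitochondrial members, 13 did so in both TruSeq groups and 12 in each lane. The median cytosolic member was at 157.4 TPM in H1p16, 179.5 in H1p43 and 174 in Lane4, and the median mitochondrial member at 35.9, 40.15 and 33.1 TPM.

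TARS, the threonyl enzyme, was the highest member in H1p16 (377 ± 3.31 TPM, SD, n = 3) and in each LM-Seq lane (685 ± 15.98 TPM in Lane4, n = 6). In H1p43 MARS, the methionyl enzyme, was highest at 338 ± 3.90 TPM. The lowest cytosolic member was CARS, the cysteinyl enzyme, in H1p16 (79.1 ± 2.49 TPM), HARS in H1p43 (63.5 ± 1.84 TPM) and FARSB, a subunit of the phenylalanyl enzyme, in the lanes (66.6 ± 4.15 TPM in Lane4). IARS2, the mitochondrial isoleucyl enzyme, led its compartment in all groups, at 76.1 ± 2.21 TPM in H1p16, 84.1 ± 1.49 in H1p43 and 160.8 ± 5.24 in Lane4. The prolyl enzyme PARS2 was the lowest at 7.67 ± 0.54 TPM in H1p16 and 5.54 ± 0.65 in Lane4, while in H1p43 PARS2 (10.8 ± 0.73) and WARS2, the tryptophanyl enzyme (10.8 ± 0.47), were lowest and differed by less than their SD. GARS and KARS were among the 6 highest members in each group, GARS at 305 ± 3.44 TPM in H1p16 and KARS at 288 ± 4.34.

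**Figure D1:**
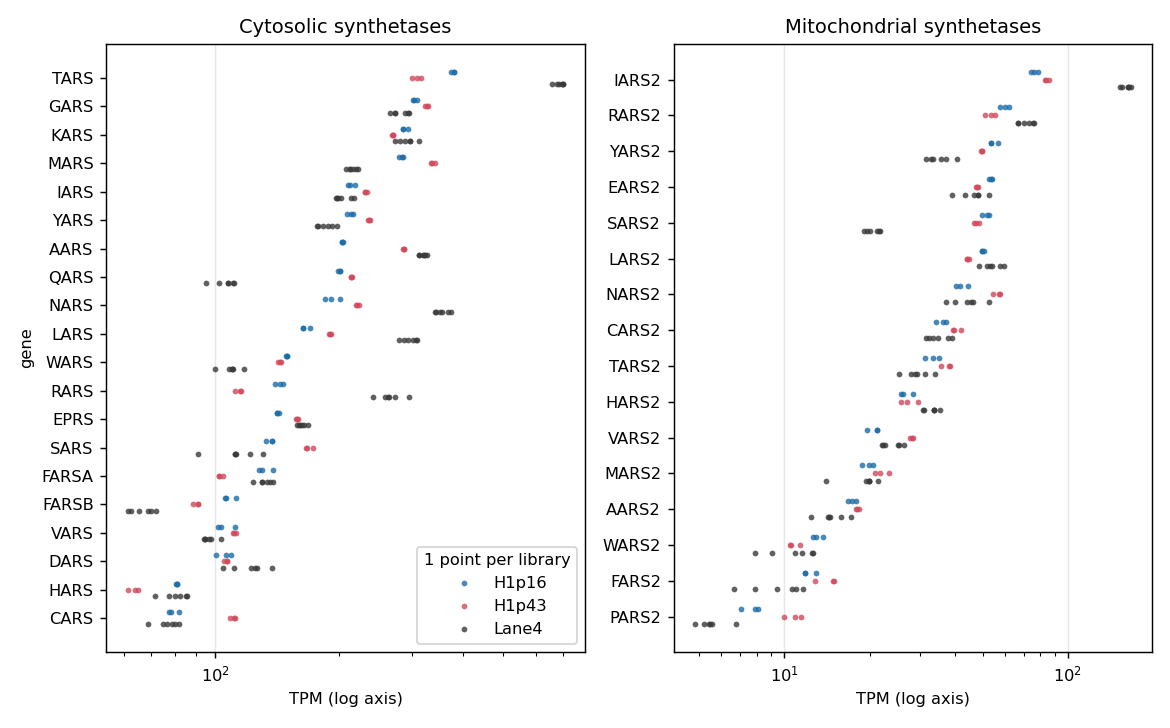
TPM (horizontal log axis) of each synthetase (vertical axis) in the H1p16, H1p43 and Lane4 libraries, 1 point per library, with 20 cytosolic members in the left panel and 16 mitochondrial members in the right. Genes are sorted by their mean in H1p16; TARS and IARS2 stand at the top of their panels, and both lie further right in Lane4 than in TruSeq.

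For 14 amino acids a cytosolic and a mitochondrial member share their letter. The cytosolic member was the higher of each such pair in every library but 3, in which IARS2 exceeded IARS: 2 of 95 in Lane1 and 1 of 48 in Lane2. The ratio of group means in H1p16 ran from 2.20 for CARS to CARS2 up to 14.3 for MARS to MARS2. In Lane4 it ran from 1.27 for IARS to IARS2 up to 23.2 for TARS to TARS2. In TruSeq the ratio of IARS to IARS2 stood at 2.81 in H1p16 and 2.76 in H1p43, and that of TARS to TARS2 at 11.3 and 8.27, so both differed from Lane4 by about 2-fold or more.

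Summed over members, cytosolic synthetases held 3621 ± 20.3 TPM in H1p16, 3791 ± 1.71 in H1p43 and 4164 ± 66.6 in Lane4, and mitochondrial ones 617 ± 2.58, 632 ± 2.92 and 682 ± 12.1 TPM. The cytosolic sum was 5.87 ± 0.04 times the mitochondrial one in H1p16, 6.00 ± 0.03 times in H1p43, and 6.06 to 6.13 times on average in the lanes. TPM values share a fixed total, of which ribosomal protein genes held 21.9% in H1p16, 22.6% in H1p43 and 11.7% in Lane4. With those genes taken out of the total, the cytosolic sum in Lane4 (4715 TPM) lay between H1p16 (4636) and H1p43 (4897), and the mitochondrial sum in Lane4 (773) lay below both (790.3 and 817). When TPM was scaled by TMM factors instead, both sums were lower in H1p43 (3140 and 524) than in H1p16 (3216 and 548). On that scale both sums in Lane4 (4177 and 684) were above both TruSeq groups, as in plain TPM. The order of H1p16 and H1p43 therefore turned with TMM scaling, and the place of Lane4 changed without ribosomal protein genes. The order of the groups in summed TPM thus rests on the scaling.

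H1p43 was then set against H1p16, both made with TruSeq. Of 12 known ATF4 targets 7 rose, led by AARS and CARS, and 2 fell; of the other 8 cytosolic members 6 fell and 0 rose; of 17 mitochondrial members 7 fell and 3 rose. The difference between these groups was not tested. Changes were small, from -0.47 to 0.38 on the log2 scale, and none reached 2-fold. At an adjusted p below 0.05 in edgeR's quasi-likelihood test, 25 of 37 members were called, 10 higher and 15 lower. The background was 71.8% of all genes tested, 36.4% higher and 35.4% lower, so the number called was near that of any genes; 7.28% of all genes were called at 2-fold or more. The groups did not overlap in TPM for 33 of 37 members, against a background of 73.7%. The common biological variation between replicates was low, and small differences passed the test.

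Among the 12 known ATF4 targets, 7 rose and 2 fell, with a median log2 fold change of 0.07 against 0.01 over all genes tested. AARS, the alanyl enzyme, was at 203, 204 and 203 TPM in H1p16 and 287, 286 and 287 TPM in H1p43, a log2 fold change of 0.38 ± 0.02 (SE; adjusted p = 8.8e-12 by edgeR). CARS was at 78.1, 81.9 and 77.2 TPM and then at 111.7, 111.3 and 108.5 TPM (0.38 ± 0.03; adjusted p = 3.4e-09 by edgeR). For both genes all H1p43 libraries lay above all H1p16 libraries. SARS (0.20 ± 0.03), MARS (0.15 ± 0.02), NARS (0.09 ± 0.03), LARS (0.09 ± 0.02) and EPRS (0.05 ± 0.02) rose less. The call of EPRS was marginal (adjusted p = 0.047 by edgeR). It was lost with DESeq2 (adjusted p = 0.17) and with RLE size factors (adjusted p = 0.10 by edgeR). With either of these, or without the filter on low counts, 6 of the 12 known targets rose and 2 fell. With 1 replicate left out, 6 or 7 rose and 2 fell.

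TARS went the other way, from 379, 373 and 379 TPM in H1p16 to 315, 301 and 309.6 TPM in H1p43 (-0.40 ± 0.02; adjusted p = 1.3e-11 by edgeR). The tryptophanyl enzyme WARS also fell (-0.16 ± 0.02), and GARS (-0.01 ± 0.02), IARS (0.01 ± 0.02) and YARS (0.04 ± 0.02) were not called. Of the 7 known targets with the promoter motif, 4 rose (AARS, CARS, MARS and NARS), TARS fell, and GARS and IARS were not called. The motif was thus present in the member with the largest rise and in the known target with the largest fall.

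Of the other 8 cytosolic members, 0 rose and 6 fell, with a median of -0.28. FARSA, the catalytic subunit of the phenylalanyl enzyme, was at 138.3, 130.2 and 127.7 TPM in H1p16 and 101.99, 104.4 and 102.1 TPM in H1p43 (-0.47 ± 0.03; adjusted p = 2.9e-10 by edgeR). Its partner subunit FARSB fell by 0.37 on the log2 scale. HARS was at 80.7, 80.5 and 80.7 TPM in H1p16 and 65.1, 63.9 and 61.5 TPM in H1p43 (-0.46 ± 0.03), and RARS, the arginyl enzyme, at 142.9 ± 3.30 and then 114.2 ± 2.10 TPM (SD, n = 3 each; -0.43 ± 0.03). The groups did not overlap for these genes. KARS (-0.20 ± 0.02) and DARS (-0.10 ± 0.03), the aspartyl enzyme, fell less, and QARS (-0.01 ± 0.02) and VARS (-0.03 ± 0.03) were not called.

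HARS2, which starts beside HARS, was at 25.8, 26.2 and 28.4 TPM in H1p16 and 27.1, 29.7 and 25.8 TPM in H1p43 (-0.08 ± 0.05; adjusted p = 0.20 by edgeR). The 95% interval of its change ran from -0.18 to 0.03 on the log2 scale, and the difference between the changes of HARS and HARS2 was not tested. Their annotated starts in GRCh38.p14 lie 84 bases apart and the genes run away from each other. Other starts of either gene were not checked. The labels do not say whether counting used strand, and the part of strand in these values was not tested.

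Among mitochondrial members, PARS2 rose from 7.05, 8.07 and 7.89 TPM to 11.4, 10.9 and 9.99 TPM (0.37 ± 0.08; adjusted p = 0.00031 by edgeR). VARS2, the valyl enzyme, rose from 21.2, 21.1 and 19.6 TPM to 28.1, 27.6 and 28.4 TPM (0.33 ± 0.04), and NARS2, the asparaginyl enzyme, from 40.3, 41.5 and 44.6 TPM to 57.4, 54.4 and 57.2 TPM (0.30 ± 0.04). WARS2 fell from 12.6, 12.95 and 13.7 TPM to 10.5, 10.5 and 11.3 TPM (-0.39 ± 0.06; adjusted p = 8.7e-06 by edgeR). None of these 4 genes overlapped between the groups. RARS2, LARS2, EARS2, YARS2 and SARS2 also fell, by log2 fold changes between -0.28 and -0.23. The 7 members not called, IARS2 (0.03 ± 0.03) among them, lay between -0.08 and 0.12.

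**Figure D2:**
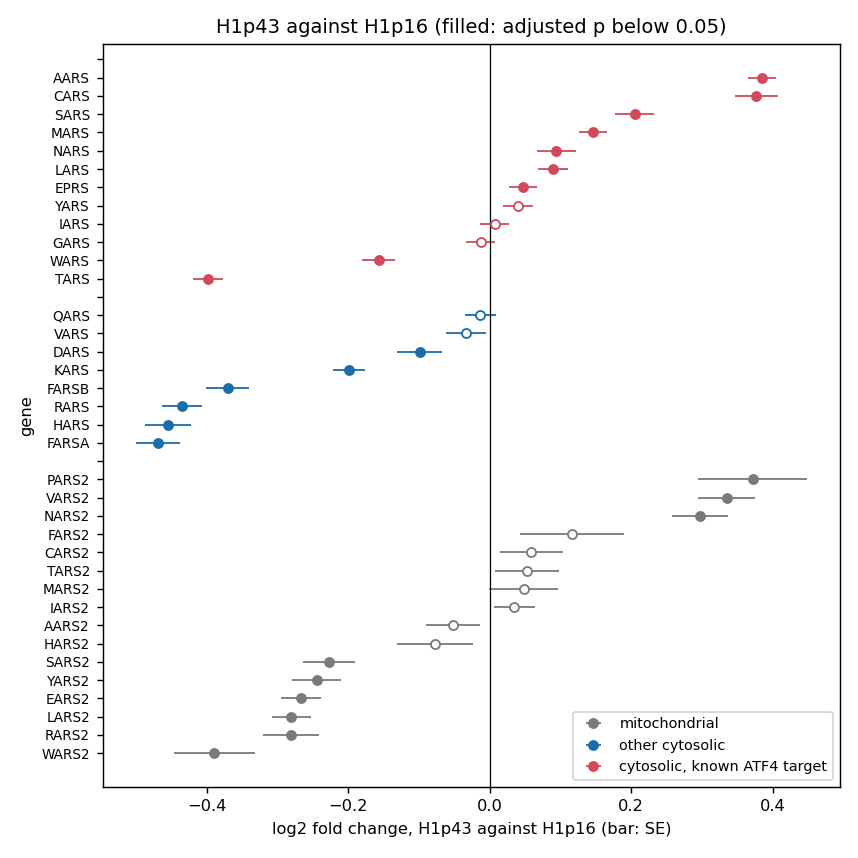
Log2 fold change of each synthetase in H1p43 against H1p16 (horizontal axis, bars show the SE) for 12 known ATF4 targets (red), 8 other cytosolic members (blue) and 16 mitochondrial members (grey). Filled points passed an adjusted p below 0.05; on this TMM scale the blue points all lie below 0, which QARS, VARS and DARS do not on the TPM scale, while red points reach from -0.40 to 0.38.

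These directions are relative to the TMM scaling of the counts. With log2(TPM + 1) values tested by limma, 33 members were called, 19 higher and 14 lower, where the background was 73.3% of all genes, 47.1% higher and 26.3% lower. The median over all genes on that scale was 0.09, and the balance of calls moved toward higher for the members and for all genes. On that scale 10 of the 12 known targets rose and 2 fell, 1 of the other 8 cytosolic members rose (QARS) and 5 fell, and mitochondrial members split 8 higher to 7 lower. Among members called by edgeR, DARS was the one whose sign turned, to 0.01 (adjusted p = 0.72 by limma). With a required fold change of 1.2, 9 members were called, 3 higher and 6 lower, against a background of 36.6%, 20.7% higher and 15.8% lower. Those 9 included 3 known targets, 2 higher and 1 lower, and 4 other cytosolic members, all lower.

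Other groupings of the enzymes moved in both directions. In the multisynthetase complex 3 of 8 enzymes rose and 3 fell; of its scaffold, AIMP1 rose (0.23 ± 0.05), AIMP2 fell (-0.48 ± 0.04) and EEF1E1 was not called (0.06 ± 0.03). The enzymes divide into class I and class II by the fold of their catalytic domain: 4 of 18 class I enzymes rose and 7 fell, and 5 of 18 class II enzymes rose and 8 fell. EPRS, which has both folds, was counted in neither. For all these counts the background was 36.4% of all genes tested called higher and 35.4% called lower.

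In the list of other ATF4 pathway genes, 13 of 18 rose and 2 fell in H1p43, with a median of 0.29 against 0.01 over all genes tested. Over all genes tested 36.4% were called higher and 35.4% lower. The list was chosen with earlier results of these data known, and its relation to the known target synthetases was not tested. PCK2, a mitochondrial gluconeogenic enzyme, rose from 76.1 ± 1.82 to 150.2 ± 3.84 TPM (0.87 ± 0.03, n = 3 each), ASNS, asparagine synthetase, from 168.98 ± 6.26 to 282 ± 2.77 TPM (0.64 ± 0.03), and DDIT4, an inhibitor of mTORC1 signalling, from 16.6 ± 2.03 to 41.99 ± 1.52 TPM (1.23 ± 0.06). ATF4 itself rose from 794 ± 7.48 to 994 ± 3.68 TPM (0.21 ± 0.02). The decreases were DDIT3, a stress-induced transcription factor (-0.66 ± 0.15), and SLC7A11, a cystine transporter (-0.14 ± 0.03). ATF4, DDIT3 and SLC7A11 were named after their values were seen.

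Of 7 genes for transfer RNA supply, 6 were lower and 0 higher, with a median of -0.31. Over all genes tested 35.4% were called lower and 36.4% higher. The list included XPOT, which exports transfer RNA, and MAF1, a repressor of RNA polymerase III. On the TMM scale XPOT was called lower (-0.12 ± 0.02), at 180.76 TPM in H1p16 and 179.35 TPM in H1p43, and MAF1 was not called. The lower genes also included POLR3A, the largest subunit of RNA polymerase III (-0.51 ± 0.03), ELAC2, which trims the 3′ end of transfer RNA precursors (-0.35 ± 0.03), and LCMT2, a modifying enzyme (-0.62 ± 0.07). Of 4 partners of mitochondrial charging, MTFMT, which formylates the initiator transfer RNA, rose from 9.28 ± 0.45 to 14.02 ± 0.42 TPM (0.49 ± 0.06), and QRSL1 (-0.17 ± 0.04) and GATC (-0.16 ± 0.04), subunits of the amidotransferase that makes glutaminyl-tRNA, fell. Of 4 proofreading and related genes, AARSD1 fell (-0.24 ± 0.04) and 3 were not called. The 2 genes of the selenocysteine branch were not called.

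The next comparison set the 6 Lane4 libraries of LM-Seq against all 6 TruSeq libraries. RARS, TARS and IARS2 were about 2-fold higher in Lane4 and SARS2, the mitochondrial seryl enzyme, was 2.35-fold lower; changes went both ways in both compartments. In edgeR's quasi-likelihood test 27 of 37 members were called, 12 higher and 15 lower, where the background was 71.3% of all genes tested, 34.3% higher and 36.9% lower. These 4 members differed at least 2-fold, a size called for 24.1% of all genes, and 20 of 37 members did not overlap in TPM, against a background of 53.9%. Protocol, lane and samples per lane all differ between these groups, the cultures may differ too, and these cannot be told apart.

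TARS was at 301 to 379 TPM in the TruSeq libraries and had a lowest value of 659, a median of 689 and a highest of 699.9 TPM in Lane4 (1.03 ± 0.08; adjusted p = 1.8e-08 by edgeR). RARS averaged 142.9 TPM in H1p16 and 114.2 TPM in H1p43 and was at 241, 263 and 295 TPM in Lane4 (lowest, median and highest; 1.08 ± 0.10). IARS2 was at 73.8 to 85.8 TPM in TruSeq and at 152.99, 162.7 and 166.4 TPM in Lane4 (1.04 ± 0.04; adjusted p = 6.9e-12 by edgeR). For these 3 genes the lowest Lane4 library was above the highest TruSeq library. SARS2 was at 46.6 to 52.5 TPM in TruSeq and at 19.1, 20.6 and 21.8 TPM in Lane4 (-1.23 ± 0.08; adjusted p = 5.7e-10 by edgeR), with no overlap.

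Further increases in Lane4 were NARS (0.82 ± 0.05) and LARS, the leucyl enzyme (0.78 ± 0.04). NARS was at 185 to 223 TPM in TruSeq and at 342, 353 and 374 TPM in Lane4. QARS, the glutaminyl enzyme, showed the largest cytosolic decrease, from 198 to 215 TPM in TruSeq to 95.2, 107.4 and 110.9 TPM in Lane4 (-0.93 ± 0.05; adjusted p = 4.9e-11 by edgeR). PARS2 (-0.69 ± 0.13), FARSB (-0.54 ± 0.09), YARS2, the mitochondrial tyrosyl enzyme (-0.53 ± 0.08), and FARS2, the mitochondrial phenylalanyl enzyme (-0.43 ± 0.14), were also lower. PARS2 and FARS2 had as few as 73 and 81 counts in a Lane4 library. EPRS was slightly higher (0.15 ± 0.04), GARS slightly lower (-0.12 ± 0.04), and KARS was not called (0.10 ± 0.06).

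HARS2 was higher in Lane4, at 30.8, 33.7 and 35.4 TPM against 25.8 to 29.7 TPM in TruSeq (0.32 ± 0.06; adjusted p = 0.00032 by edgeR). LM-Seq keeps the strand of the RNA and the TruSeq kit used does not; for this neighbouring pair of opposite strands, the part of that difference between the protocols was not tested. HARS, at 71.4, 80.96 and 85.5 TPM, was not called against the pooled TruSeq libraries (0.18 ± 0.10). Against H1p43 alone HARS was called higher (0.44 ± 0.07), and against H1p16 alone it was not called (-0.04 ± 0.07); the same Lane4 libraries enter both fits. CARS was lower against the pooled TruSeq libraries (-0.27 ± 0.08) and against H1p43 alone (-0.44 ± 0.05), but its call was lost against H1p16 alone (-0.08 ± 0.06; adjusted p = 0.26 by edgeR). AARS was higher against each, by 0.62 ± 0.04 over H1p16 and 0.26 ± 0.03 over H1p43.

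Known ATF4 targets were called higher in 5 and lower in 6 of 12 members, other cytosolic members in 2 and 3 of 8, and mitochondrial members in 5 and 6 of 17. Over all genes tested 34.3% were called higher and 36.9% lower. In the multisynthetase complex 4 of 8 were higher and 2 lower. Of the 18 other ATF4 pathway genes 3 were higher and 10 lower, with a median of -0.43 against -0.06 over all genes tested. ATF4 went from 894 ± 109.6 to 482 ± 20.2 TPM (SD, n = 6 each; -0.85 ± 0.05), SESN2, a stress-induced inhibitor of mTORC1, was lower by a log2 fold change of -1.53 ± 0.11, and SLC7A11 was higher (0.90 ± 0.07). Of 7 genes for transfer RNA supply 3 were higher and 2 lower, XPOT, the exporter of transfer RNA from the nucleus, at 0.88 ± 0.05 and MAF1, a repressor of RNA polymerase III, at -1.17 ± 0.08. The scaffold gene EEF1E1 was lower (-1.01 ± 0.09).

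The GC content of the transcripts, looked up after the fold changes were seen, moved with this comparison. Members called higher in Lane4 had a median GC content of 43.65% (41.2% to 53.5%), and members called lower one of 53.7% (41.6% to 62.6%). RARS, TARS and IARS2 had 41.4%, 43.6% and 43.8%, and SARS2 had 61.5%. FARSB, at a GC content of 41.6%, was lower in Lane4, and AARS, at 53.5%, was higher. Across the 37 members Spearman's rho between GC content and log2 fold change was -0.46, and across 13512 genes tested it was -0.57; genes share the same libraries and are not independent. Between H1p43 and H1p16 the same values were 0.22 and 0.12. For transcript length, looked up with GC content, rho in Lane4 against TruSeq was 0.27 across members and 0.29 across genes. Between H1p43 and H1p16 it was 0.08 and -0.006. The part of GC content or length in these differences was not tested.

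**Figure D3:**
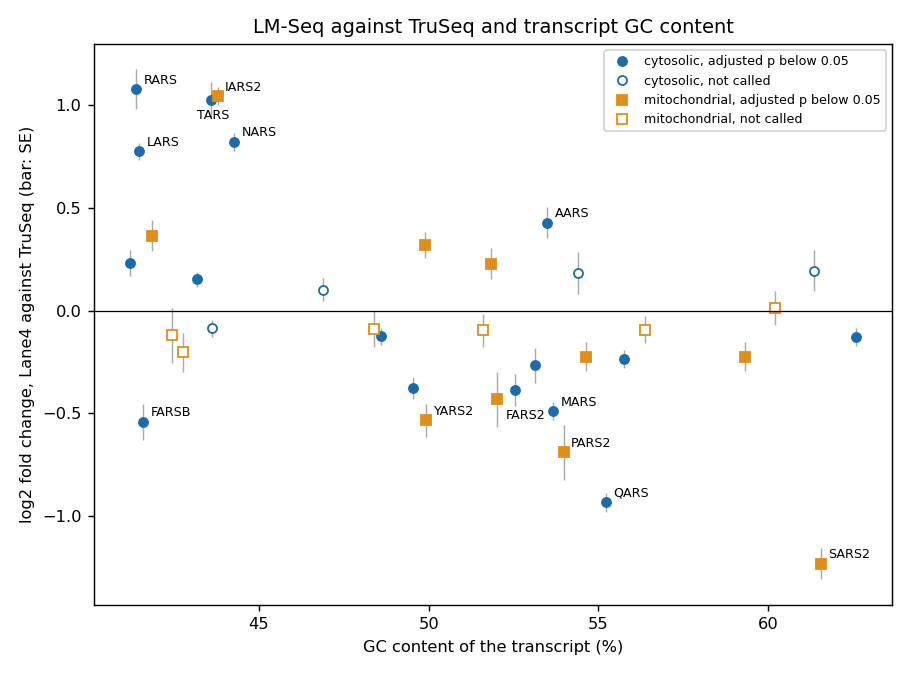
Log2 fold change of 20 cytosolic and 16 mitochondrial synthetases in Lane4 against TruSeq (vertical axis, bars show the SE) by the GC content of the transcript in percent (horizontal axis), with circles for cytosolic and squares for mitochondrial members and filled points for an adjusted p below 0.05. RARS, TARS and IARS2 lie at the upper left with a GC content of 41.4% to 43.8%, SARS2 at the lower right with 61.5%.

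The LM-Seq lanes differed in depth and held the same library numbers, which asks what fewer counts did to the synthetases. Levels of the members differed little between lanes. In edgeR's quasi-likelihood test 0 of 37 members were called in Lane2, Lane3 or Lane4 against Lane1, where the background was 0% of all genes for Lane2, 0% for Lane3 and 0.0161% for Lane4. The groups did not overlap for 0 of 37 members in Lane4, against a background of 0.0805%. At an unadjusted p below 0.05 there were 0, 2 and 0 members, and DESeq2 and limma called 0 in each. The 2 in Lane3 were IARS2, with a 95% interval of its log2 fold change from -0.13 to -0.01, and DARS, from -0.14 to -0.01. Log2 fold changes of all members ran from -0.08 to 0.07 in Lane2, -0.07 to 0.27 in Lane3 and -0.17 to 0.11 in Lane4. These fits did not pair the lanes by library number. With the number as a block, 0 members were called, beside 26 of 10120 genes in Lane2, 44 of 10871 in Lane3 and 13 of 12419 in Lane4. With all libraries of Lane1 and Lane3 in place of the shared numbers, DARS was called lower in Lane3 (-0.11 ± 0.03; adjusted p = 0.017 by edgeR). That fit called 60 of 10050 genes, 55 of them lower, and did not pair same-numbered libraries.

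The spread between libraries did change with depth. Over the 6 library numbers in all 4 lanes, the median coefficient of variation of TPM for cytosolic members went from 6.46% in Lane1 to 5.12%, 4.85% and 4.48% in Lane2, Lane3 and Lane4. For mitochondrial members it was 15.6%, 11.2%, 9.22% and 9.58%, and for all genes averaging 1 TPM or more 20.05%, 15.997%, 13.5% and 11.6%. TARS, with a median of 1021 counts in Lane1 and 12786 in Lane4, varied by 4.53% and 2.33%. PARS2, with 5 and 85.9 counts, varied by 54.4% and 11.8%, and FARS2 by 51.1% and 20.3%.

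Over the 95 libraries of Lane1 the median SD of log2(TPM + 1) was 0.11 for cytosolic members, 0.27 for mitochondrial members and 0.31 for all genes averaging 1 TPM or more. TARS had the lowest SD of the members, at 0.07, and FARS2 the highest, at 0.61. The mean count per Lane1 library had a median of 289 over cytosolic members and of 40.4 over mitochondrial ones. Counting noise alone at those counts would give a coefficient of variation of 5.88% and 15.7%, beside the measured 7.61% and 18.7%. The lowest Lane1 library held 1 count for FARS2 and 2 for PARS2, so their levels in a single library are known only loosely.

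**Figure D4:**
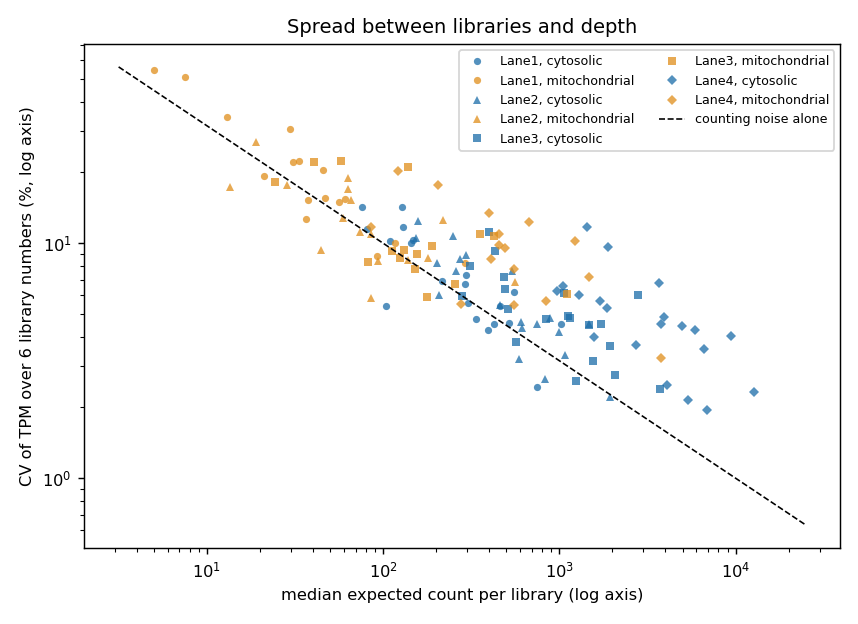
Coefficient of variation of TPM over the 6 library numbers present in all lanes (vertical log axis, percent) against the median expected count per library (horizontal log axis), 1 point per synthetase and lane for 20 cytosolic and 16 mitochondrial members, with symbols for lanes and colours for compartments. The dashed line is counting noise alone; points follow it at low counts, as for PARS2 in Lane1 (54.4% at 5 counts), and lie above it in Lane4, as for TARS (2.33% at 12786 counts).

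Library numbers also differed from each other. For the 48 numbers held by both Lane1 and Lane2, edgeR's quasi-likelihood test asked whether a gene's level differed among numbers beyond the difference between lanes of a number. It called 32 of 37 members: all 20 cytosolic and 12 of 17 mitochondrial members, with NARS2, RARS2, VARS2, WARS2 and YARS2 not called. The background was 91.3% of all genes tested, so the members' share was near that of any genes. The SD of log2 levels that the lanes shared was small for the members, with a median of 0.07 for cytosolic and 0.12 for mitochondrial ones, against 0.14 over all genes tested.

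SARS, the cytosolic seryl enzyme, had the lowest adjusted p (6.5e-15 by edgeR). Its lowest, median and highest values were 97.5, 117.7 and 176 TPM in Lane1 and 90.7, 112.5 and 181 TPM in Lane2, and the highest libraries were Lane1_38859 and Lane2_38859. AARS ranged from 230 to 375 TPM in Lane1 and from 249.7 to 369 TPM in Lane2, with Lane1_38846 and Lane2_38846 lowest and the same pair as for SARS highest. NARS ranged from 319 to 394 TPM and from 317 to 403 TPM, again with that pair highest. Among mitochondrial members IARS2 ranged from 132.7 to 190.3 TPM in Lane1 and from 140.9 to 185 TPM in Lane2. PARS2 ranged from 1.73 to 11.9 TPM and from 0.42 to 13.8 TPM, and LARS2, lowest in Lane1_38846 and Lane2_38846, from 40.2 to 73.2 TPM and from 37.7 to 66.99 TPM.

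Both numbers stood apart in the members and over all genes tested. Spearman's rho across genes with the median library of the lane was 0.968 for Lane1_38846 and 0.97 for Lane1_38859, against 0.9789 or more for the other numbers, and 0.974 and 0.977 in Lane2, against 0.9853 or more. Over the 37 members and both lanes, Lane1_38846 with Lane2_38846 held 20 of the lowest and highest values, and Lane1_38859 with Lane2_38859 held 17, against a median of 2 per number. Lane1_38846 was the lowest library in 7 members and Lane2_38846 in 11, among them LARS, IARS and FARSA in both. Without these 2 numbers 34 members were called, against a background of 87.8%, a setting chosen after the values were seen.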

How the data were processed

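RNA-seq of 179 H1 libraries was analysed. The submitters' processing notes name the build hg19 and the tools RSEM 1.2.3, Bowtie 0.12.8 and CASAVA 1.8.2. One deposited table holds RSEM's expected counts, in which reads shared by several genes are divided by its model. The authors also deposited TPM values, scaled by transcript length and library total. Groups and replicate numbers came from the titles.

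Expected counts were rounded and, after filterByExpr and TMM, entered edgeR's quasi-likelihood test (edgeR 4.0.16, R 4.3.3), with Benjamini-Hochberg adjustment over all genes tested and calls at an adjusted p below 0.05. Each SE is the size of the log2 fold change divided by the square root of its F statistic. The procedure was tested on simulated data with 100 genes changed 2-fold and 100 changed 1.5-fold. Of these, 99 and 88 were recovered for H1p43 against H1p16, and 99 and 90 for Lane4 against TruSeq. For Lane4 against Lane1 88 and 63 were recovered, so changes of 1.5-fold between those lanes could be missed. Simulated biological variation was 0.03, 0.1 and 0.06 in this order, against 0.022, 0.157 and 0.11 in the data. The alternatives tried were limma 3.58.1 on log2(TPM + 1) or log2(TPM + 0.1) of genes averaging 1 TPM or more, DESeq2 1.42.0, a minimum fold of 1.2, RLE size factors, thinned counts, no filter, other lanes, omitted replicates and a replicate block.

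Same-numbered libraries of Lane1 and another lane deviated together (correlations of 0.18 to 0.59 in Lane2, 0.24 to 0.53 in Lane3 and 0.36 to 0.44 in Lane4), so numbers pair the lanes by the data; the labels do not say what a number marks. No 2 libraries of a group agreed within counting noise, the smallest chi-square per degree of freedom being 1.29, so 0 were counted as duplicates.

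Members and lists were chosen with earlier results of these data known. Named genes were the 6 largest non-overlapping called changes per compartment, the 3 called members per compartment with the lowest adjusted p among library numbers, GARS, KARS, EPRS, HARS, HARS2 and the highest and lowest member per compartment, and the 3 of lowest adjusted p per pathway list. Others are given as group examples. GC content and transcript length came from GENCODE 29 transcripts matched by RefSeq accession, found for all 37 members and 18537 of 19084 genes. One mitochondrial member entered the fits and counts but is not reported here by itself or drawn in the figures.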

Additional observations from a re-analysis of the deposited data

Results flagged for a closer look

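In Lane4, 3 of 39 sets of 6 values checked (a synthetase, or a summed level) held 1 library far from the others, where chance flags about 1 in 20. VARS was at 103.59 TPM in Lane4_38871, with the other 5 at 94.1 to 97.65 TPM. MARS2 was at 14.06 TPM in Lane4_38874, with the others at 19.4 to 21.4 TPM. PARS2 was at 6.78 TPM in Lane4_38871, with the others at 4.86 to 5.55 TPM.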

How the results depend on the processing

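The 24 fold changes named, of 21 genes over both comparisons, kept their direction and their call in 427 of the alternatives computed and lost the call in 5, all with a required fold change of 1.2, with adjusted p-values in edgeR of 0.071 for PARS2, 0.17 for NARS2, 0.30 for RARS2 and 0.24 for LARS2 in H1p43 against H1p16, and 0.065 for FARS2 in Lane4 against TruSeq; none changed sign. These values had been picked as the largest calls without overlap and were refitted on the same libraries, so most were likely to keep their call. Of the 427, 216 came from leaving out 1 replicate. EPRS, not among the 24, lost its call in H1p43 against H1p16 with DESeq2 and with RLE size factors. The required fold change of 1.2 left 9 members in the first comparison and 15 in the second (7 higher, 8 lower, against 57.8% of all genes), by its own construction. With all libraries, 1 member was called in Lane3 against Lane1, where 60 of 10050 genes were called. Leaving out 1 replicate gave 24 to 26 members for H1p43 against H1p16, where 66.8% to 70.7% of all genes were called. For Lane4 against TruSeq it gave 27 to 29, where 68.8% to 71.1% of all genes were called. For Lane4 against Lane1 it gave 0, where at most 1 gene was called. Same-numbered TruSeq libraries deviated together only weakly (correlations of 0.06, 0.04 and 0.08), so they share only a number. Not every library correlated best with its own number. A replicate block left 25 members, where 71.8% of all genes were called. With the library number as a block, 0 members were called in each lane comparison, also on thinned counts. Over all genes that block called 26 of 10120 in Lane2, 44 of 10871 in Lane3 and 13 of 12419 in Lane4. On thinned counts it called 6 of 9158, 14 of 9207 and 3 of 9340. Lane3, Lane2 or Lane1 in place of Lane4 gave 32, 34 and 32 members against TruSeq, where 79%, 81.1% and 82.8% of all genes were called, and H1p16 or H1p43 alone gave 27 and 30, against 66.8% and 73.2% of all genes. Tests among library numbers called 27 members on thinned counts, where 35 were tested and 71% of all genes were called, and 36 without a filter, against 69.8% of all genes. Without ribosomal protein genes the summed TPM in H1p16, H1p43, Lane1, Lane2, Lane3 and Lane4 was 4636, 4897, 4732, 4741, 4774 and 4715 for cytosolic members and 790.3, 817, 774, 783, 786 and 773 for mitochondrial members. Scaled by TMM factors it was 3216 and 3140 for cytosolic and 548 and 524 for mitochondrial members in H1p16 and H1p43. In Lane4 the TMM-scaled sums were 4177 for cytosolic and 684 for mitochondrial members. The median SD in Lane1 was 0.11 and 0.27 with a pseudocount of 0.1, and 0.12 and 0.29 on thinned counts, for cytosolic and mitochondrial members. Depth limits PARS2 and FARS2 most, with 5 and 7.5 counts per Lane1 library at the median of the 6 shared numbers; the cause of the other shifts was not tested.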
